A study of Mus musculus with 8 samples.

Results

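Kinesins, the motor proteins named Kif or Kifc, were followed in mesenchymal cells sorted from the lungs of C57BL/6J mice, with and without bleomycin injury. A row of the array table counted as a kinesin when its annotation gave a gene symbol of the form Kif plus a number and an optional letter a to c, or Kifc plus a digit, and no other gene. This rule found 40 genes among the 22180 genes tested, each read from its brightest row, and 3 of them (Kif5b, Kif7 and Kif27) had a second row. The mice were 11 weeks old and received bleomycin, a DNA-damaging drug, or PBS into the trachea. On day 10 cells negative for CD45, CD31 and EpCAM were collected, and RNA of 4 control and 4 bleomycin samples was labelled and hybridised, with 1 array each. No transgene or allele is named in either group, and the labels do not say whether replicates were separate animals or pools, so the spread behind every p-value could be partly technical.

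Kinesins convert the energy of ATP into movement along microtubules, or into the shortening of microtubule ends. Some build and pull apart the mitotic spindle and are made mainly by dividing cells, whereas others carry vesicles, organelles and proteins through the cytoplasm or along the cilium at all times. Kif26a and Kif26b keep the fold of the motor but lack its ATPase activity and act in signalling. In injured lung, mesenchymal cells divide, and fibroblasts become the contractile, matrix-producing cells of scar tissue.

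After bleomycin, 15 of the 40 kinesins were higher and 4 were lower (limma, Benjamini-Hochberg adjusted p under 0.05 over all genes). The background over all genes tested was 9.12% higher and 8.24% lower. The kinesins that rose were 12 of 13 spindle and cytokinesis motors, the transport motors Kif5c and Kif1a, and the atypical Kif26b, which had the largest difference of the family. Those that fell, Kif13a, Kif1b, Kif13b and Kif21a, were all transport motors. Kif2a, a microtubule depolymeriser of neurons and spindles, was kept outside the mitotic list and did not pass (limma adjusted p = 0.468). The median log2 difference (bleomycin minus control, the scale of every difference given here) was 1.40 for the mitotic kinesins, -0.0033 for the 17 transport kinesins and 0.12 for the 6 ciliary kinesins, beside 0.03 over all genes. The difference between the role groups was not tested, since the roles were assigned with earlier results of these data known. In bulk samples, a change in the share of a cell type and a change in RNA per cell cannot be told apart.

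**Figure D1:**
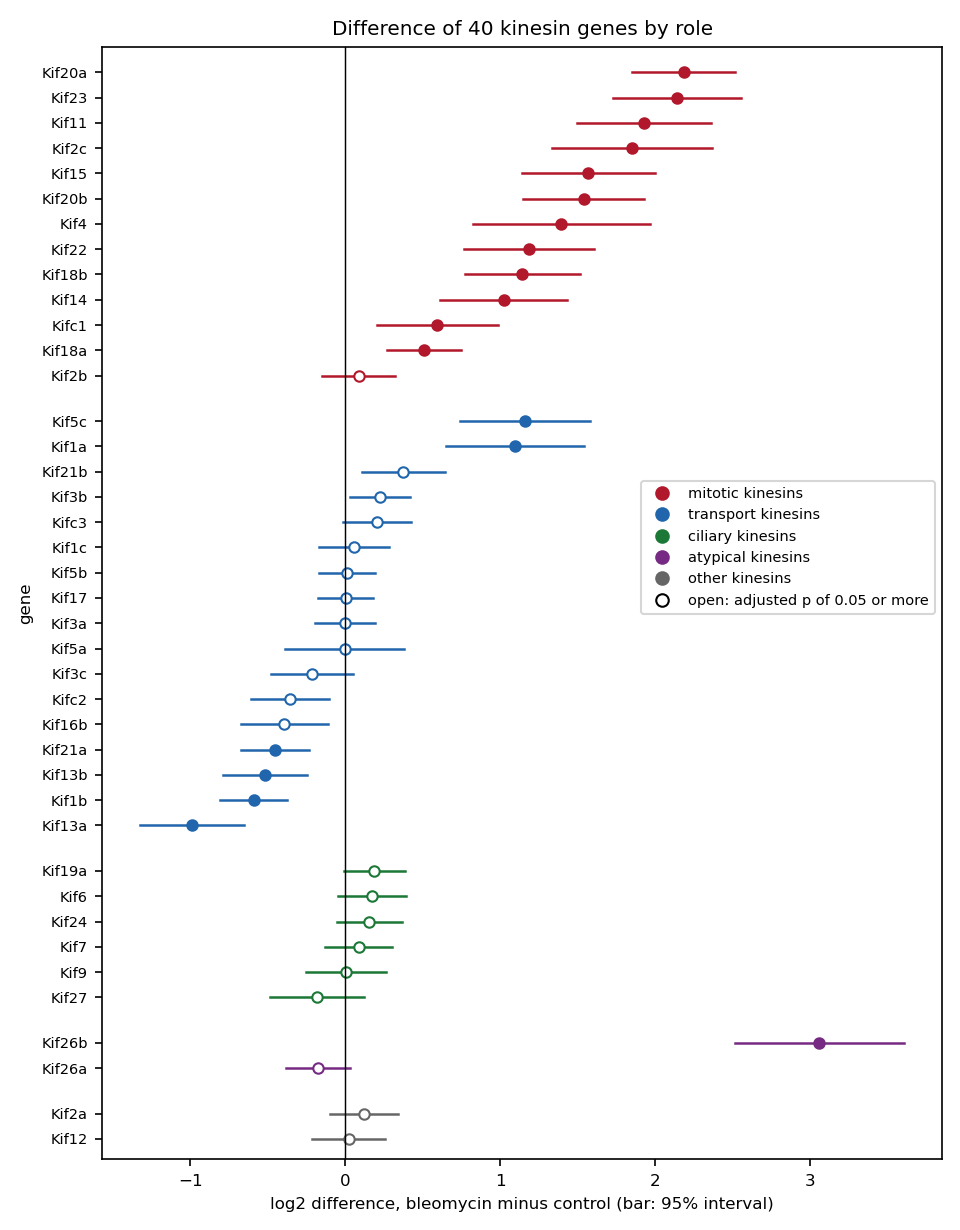
The log2 difference (horizontal axis, bleomycin minus control) of each of the 40 kinesin genes (vertical axis) with its 95% interval, n = 4 arrays a group, grouped by role; filled points passed an adjusted p of 0.05. Of the 13 mitotic kinesins 12 are filled and right of 0, the transport kinesins lie on both sides, and Kif26b stands farthest right at 3.06.

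Over all genes 2022 were higher and 1828 lower as deposited, and 1623 and 2314 after centring each array on its median. The sorted samples differed in more than their fibroblasts. Of the markers of cell types the gate should remove, 9 of 11 endothelial and 11 of 12 alveolar epithelial genes were lower after bleomycin, and 7 of 13 leukocyte genes were higher and 1 lower. The mean of the endothelial list lay between 8.64 and 9.54 on control arrays and between 7.89 and 8.34 on bleomycin arrays, that of the alveolar list between 8.30 and 9.14 and between 6.73 and 7.59, and that of the leukocyte list between 5.96 and 6.29 and between 6.41 and 6.64 (log2 intensities). Control replicates 1 and 2 held the highest endothelial and alveolar means. In both groups replicates 1 and 2 stood apart from 3 and 4 on the second principal component, which held 11.1% of the variance; the labels name no batch. Rows without a gene had medians of 4.20 to 4.52 on these arrays, and a log2 intensity has no true 0. Of the genes of the gate, Pecam1, which encodes CD31, fell by 1.31 ± 0.25 (SE), while Ptprc (CD45) and Epcam differed by -0.48 and -0.57 (adjusted p of 0.0529 and 0.0547). The samples were bright for mesenchyme: 7 of 10 of its markers were higher after bleomycin and 2 lower, and their list mean was 10.5 to 10.7 on control and 11.1 to 11.4 on bleomycin arrays.

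Kif20a and Kif23, motors of the central spindle, had the largest rises among the mitotic kinesins, while other motors of cytokinesis rose less. Kif20a, which brings the chromosomal passenger complex to the central spindle, read 5.14, 5.13, 5.18 and 5.12 on control replicates 1 to 4 and 7.78, 7.38, 7.17 and 6.97 on bleomycin replicates 1 to 4 (log2 intensity). The control arrays were almost level and every bleomycin array lay far above them. The difference was 2.19 ± 0.15 (SE), or 4.55-fold, with a limma adjusted p of 2.03e-05. Kif23, which forms the centralspindlin complex with Racgap1, read 4.63, 4.24, 4.61 and 4.40 in control and 7.12, 6.50, 6.70 and 6.13 in bleomycin samples. It rose 4.42-fold, by 2.14 ± 0.19 (limma adjusted p = 6.51e-05), and the groups did not overlap. Kif20b, a motor of the late steps of cytokinesis, went from 4.45 ± 0.06 to 5.99 ± 0.42 (mean ± SD, n = 4 each), and Kif14, which acts with citron kinase at the cleavage furrow, from 4.07 ± 0.16 to 5.09 ± 0.41.

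Spindle-building motors rose as well. Kif11, which pushes the spindle poles apart and is a target of antimitotic drugs, read 5.26, 4.99, 5.27 and 5.41 in control and 7.66, 7.22, 7.19 and 6.59 in bleomycin samples. Its lowest bleomycin array was above its highest control array, and the difference was 1.93 ± 0.19 (limma adjusted p = 0.000157). Kif15, which can take over part of the work of Kif11, rose by 1.57 ± 0.19, or 2.97-fold. Kifc1, a motor that walks to the opposite end of the microtubule and gathers spindle poles, rose least clearly, by 0.59 ± 0.18 (limma adjusted p = 0.0409). Its arrays overlapped, with 3.63, 4.10, 3.89 and 3.92 in control and 4.34, 4.62, 4.92 and 4.05 in bleomycin samples. The call of Kifc1 was lost on leaving out any 1 of control replicates 1, 3 and 4 or bleomycin replicates 1, 2 and 3 (limma adjusted p between 0.0624 and 0.107), and also with quantile normalization (0.0537) or median centring (0.0545).

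Motors that act on chromosomes and on microtubule ends completed the group. Kif2c, which shortens microtubules at the kinetochore, read 4.25, 4.58, 4.47 and 4.002 in control and 6.81, 6.07, 6.28 and 5.55 in bleomycin samples, a rise of 1.85 ± 0.23 (limma adjusted p = 0.000529). The chromokinesins Kif4 and Kif22, which bind chromosome arms, rose by 1.40 ± 0.26 and 1.19 ± 0.19. Kif18b, which trims astral microtubules, rose by 1.14 ± 0.17, and Kif18a, which damps the swinging of chromosomes at the spindle equator, by 0.51 ± 0.11 (limma adjusted p = 0.00121 and 0.00895). The mitotic member that did not pass was Kif2b, a relative of Kif2c, at 0.09 ± 0.11 with a 95% interval of -0.15 to 0.32. In replicates 3 and 4 alone, with 2 arrays a group, 6 of the 13 passed. In 11 of the 13 the groups did not overlap, where the background share of genes with every bleomycin array above every control array was 12.5%.

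Several of these genes were dim in control samples, which bears on the size of their rise. Kif15, Kif4, Kif14, Kifc1 and Kif2b lay below the median of unannotated rows (4.44 to 4.52 on control arrays) on all 4 control arrays, and Kif2c on 3 of them. Kif23, Kif20b and Kif22 lay below it on 2 of the 4. Whether such rows measured RNA or background in control cells was not tested, so the size of their change is uncertain. The near-identical copies of the family carry their own rows. The row of Kifc5b, a copy of Kifc1, differed by 0.10 ± 0.14 and that of Kif4-ps, a pseudogene of Kif4, by -0.16 ± 0.11, and neither passed.

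The bleomycin arrays differed from each other in a shared order across the mitotic kinesins. Bleomycin replicate 4 had the lowest bleomycin value in 12 of the 13 and replicate 1 the highest in 10. The median rise over the control mean was 2.004 on replicate 1, 1.42 on replicate 2, 1.38 on replicate 3 and 0.81 on replicate 4. The proliferation marker Mki67 stood in the same extremes, with rises of 3.63, 3.07, 2.83 and 2.23 on these arrays, as did Top2a, the topoisomerase of dividing cells, with 3.28, 2.67, 2.87 and 2.29. Replicate 4 was also the bleomycin array with the highest means of the 3 lists of other cell types. The leukocyte mean was 6.64 there and 6.41 to 6.52 on the other bleomycin arrays, the endothelial mean 8.34 against 7.89 to 8.09, and the alveolar mean 7.59 against 6.73 to 7.19. Their part in the size of the rise was not tested.

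**Figure D2:**
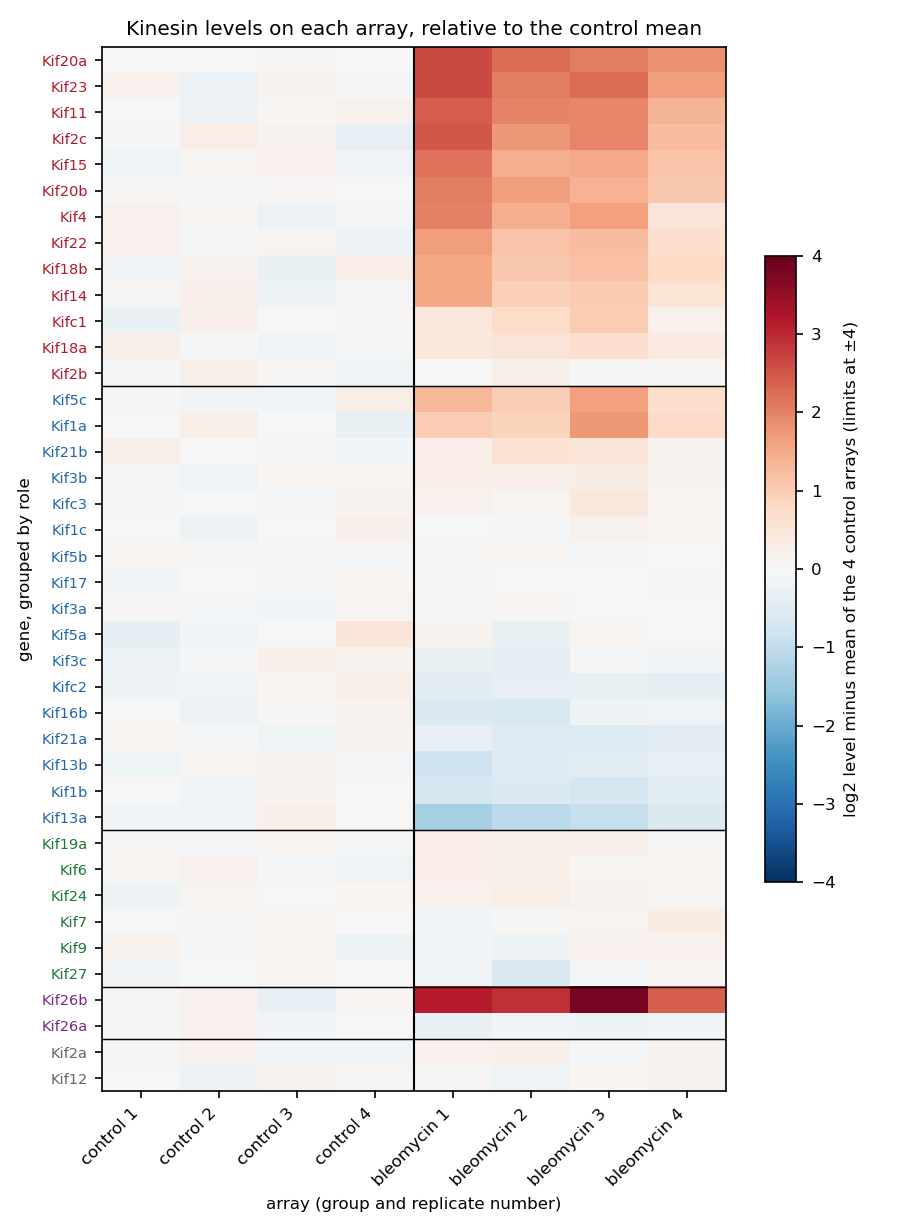
Each row is a kinesin gene and each column an array, and the colour gives the log2 level minus the mean of the 4 control arrays; gene names are coloured by role. The mitotic block is mostly red on the 4 bleomycin arrays, apart from Kif2b, and palest on bleomycin replicate 4 with a median rise of 0.81. Kif26b, Kif5c and Kif1a are reddest on bleomycin replicate 3.

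The partners of the mitotic motors moved with them. Of 10 central spindle and chromosomal passenger genes 9 rose and none fell (limma; 0 lower at an unadjusted p under 0.05). Prc1, the microtubule bundler that Kif4 binds, read 4.91, 4.79, 4.84 and 5.32 in control and 8.22, 7.51, 7.57 and 7.13 in bleomycin samples, a rise of 2.64 ± 0.21. Racgap1, the partner of Kif23, rose by 1.49 ± 0.19, and Ect2, the exchange factor that centralspindlin recruits, by 2.35 ± 0.20. The member that did not pass, the GTPase Rhoa, works in all cells and differed by -0.06 ± 0.08. Of 22 spindle and kinetochore genes 19 rose and 1, the spindle pole protein Numa1, fell. Tpx2, which targets Kif11 and Kif15 to the spindle, rose by 2.24 ± 0.22, the kinetochore subunits Nuf2 and Ndc80 by 2.54 ± 0.22 and 2.44 ± 0.18, and Cenpe, a kinetochore kinesin whose symbol falls outside the naming rule, by 1.76 ± 0.20. The fall of Numa1 by 0.31 ± 0.08 was lost without 1 array in 5 of 8 cases. Of 17 transcription factors of the cell cycle 10 rose and 3 fell, among them Foxm1, an activator of mitotic genes, up by 1.28 ± 0.12, E2f8 up by 2.37 ± 0.23, and Lin52, a subunit of the MuvB core, down by 0.76 ± 0.11. The background for these counts is again 9.12% higher and 8.24% lower.

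The promoters of the mitotic kinesins are shown because these genes moved together. Mitotic genes are known to be silenced outside division through the CHR element, written TTTGAA, to which the MuvB core of the DREAM complex binds, and are often activated through CCAAT boxes bound by NF-Y. RefSeq promoter windows (GRCm38.p6, 250 bases before to 50 bases after a gene start) matched 32 of the 40 kinesins by gene identifier. Among them were 12 of the 13 mitotic ones, all but Kif20a. TTTGAA or its reverse complement TTCAAA was found in 10 of these 12 and in 17.9% of all 32851 windows. CCAAT or its reverse complement ATTGG was found in 8 of 12 and in 37.4% of all windows, and both motifs in 7 of 12 and in 6.95%. A CHR and a CCAAT match can share at most 1 base. In the stretches that follow, 110 bases before to 25 after the start, 5′ to 3′, capitals mark matches to either motif on either strand. The first 8 are the members with a CHR match close to the start, and Kif18a is shown as a mitotic member with a match to neither motif in its window.
Kif23, chr9:61946775-61946909, minus strand: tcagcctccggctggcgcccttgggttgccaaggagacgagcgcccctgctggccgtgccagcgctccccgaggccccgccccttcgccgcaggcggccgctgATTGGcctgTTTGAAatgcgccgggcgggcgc
Kif11, chr19:37376272-37376406, plus strand: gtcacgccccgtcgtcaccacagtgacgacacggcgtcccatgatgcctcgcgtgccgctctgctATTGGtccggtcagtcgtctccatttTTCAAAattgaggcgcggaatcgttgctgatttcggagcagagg
Kif15, chr9:122950971-122951105, plus strand: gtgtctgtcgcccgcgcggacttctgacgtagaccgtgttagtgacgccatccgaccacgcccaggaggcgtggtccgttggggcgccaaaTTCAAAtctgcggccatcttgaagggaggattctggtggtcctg
Kif20b, chr19:34922248-34922382, plus strand: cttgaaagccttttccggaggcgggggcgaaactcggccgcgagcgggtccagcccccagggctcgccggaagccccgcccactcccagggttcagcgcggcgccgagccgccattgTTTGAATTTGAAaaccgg
Kif4, chrX:100625955-100626089, plus strand: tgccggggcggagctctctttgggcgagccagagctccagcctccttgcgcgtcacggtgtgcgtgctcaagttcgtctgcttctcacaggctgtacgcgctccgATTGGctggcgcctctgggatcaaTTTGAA
Kif22, chr7:127042396-127042530, minus strand: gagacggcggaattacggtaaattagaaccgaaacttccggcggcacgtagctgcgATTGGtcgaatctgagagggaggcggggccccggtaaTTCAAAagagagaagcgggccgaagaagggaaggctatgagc
Kif18b, chr11:102925100-102925234, minus strand: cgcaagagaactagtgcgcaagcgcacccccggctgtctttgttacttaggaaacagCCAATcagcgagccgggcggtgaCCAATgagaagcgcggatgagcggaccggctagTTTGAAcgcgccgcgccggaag
Kifc1, chr17:33890609-33890743, minus strand: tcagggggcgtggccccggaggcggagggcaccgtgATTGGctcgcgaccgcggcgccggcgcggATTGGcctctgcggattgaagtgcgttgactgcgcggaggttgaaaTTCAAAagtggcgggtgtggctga
Kif18a, chr2:109280628-109280762, plus strand: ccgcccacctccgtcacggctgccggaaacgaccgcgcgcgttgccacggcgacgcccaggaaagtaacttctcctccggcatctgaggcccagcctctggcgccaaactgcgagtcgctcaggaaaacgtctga

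In Kif23, Kif11, Kif15, Kif20b, Kif4, Kif22, Kif18b and Kifc1 a CHR match lay wholly within 25 bases of the start, on either side, which held for 8 of 12 mitotic kinesins and for 2.46% of all windows. That distance was chosen after the positions were seen. In Kif20b the CHR letters stood next to each other, from base 8 to base 13 and from 14 to 19 after the start. In Kif11 a CCAAT box in reverse orientation lay from -45 to -41 and the CHR match from -19 to -14, and in Kif22 the same pair lay at -54 to -50 and -17 to -12. Kif2c and Kif14 had their CHR matches farther upstream, from -103 and -228, and rose by 1.85 and 1.02. Kifc1, with its match from base 2 to base 7 after the start, rose by 0.59 with overlapping groups. Kif2b, the mitotic member that did not pass, had a CCAAT box and no CHR match, and Kif18a, which rose least of those with non-overlapping groups, had neither. Among the 11 transport kinesins with a window, CHR was found at 1 of the starts of Kif1a and in no other gene, and CCAAT in 3 genes. The ciliary kinesin Kif27, which did not pass (-0.18 ± 0.14, limma adjusted p = 0.418), had 3 CHR matches and a CCAAT box, all of them more than 50 bases upstream. Whether matches go with the response was not tested, in the mitotic kinesins or in any other role. A match describes the letters of a window and does not show that a factor binds there.

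**Figure D3:**
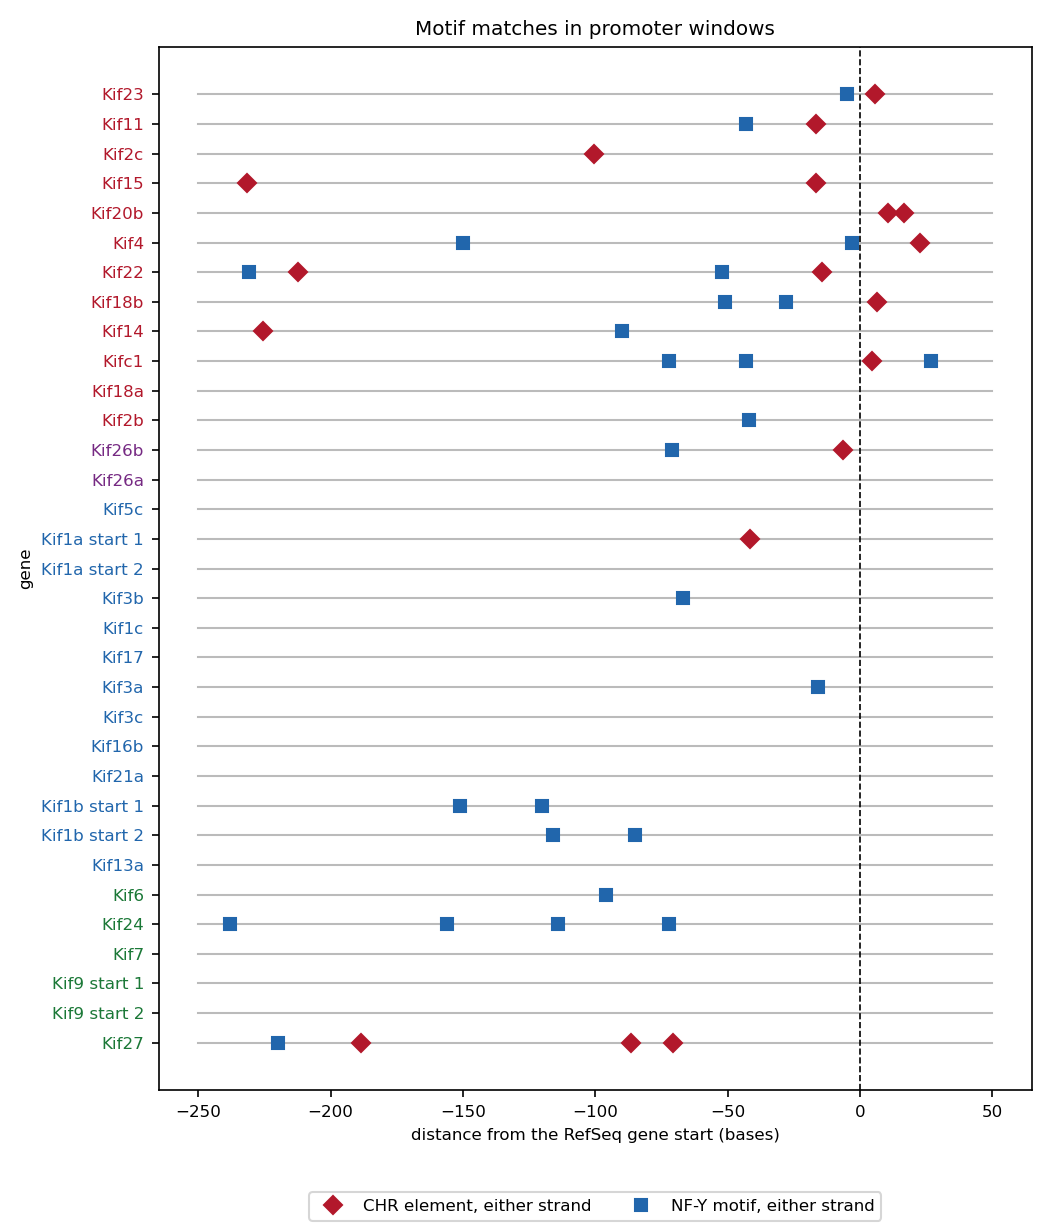
Positions of CHR elements (red diamonds) and of the CCAAT box bound by NF-Y (blue squares, NF-Y motif in the key), on either strand, against the distance from the RefSeq start in bases, for the windows of mitotic (red names), atypical (purple), transport (blue) and ciliary kinesins (green); genes with 2 starts have 2 lines. Red diamonds crowd within 25 bases of the start in 8 of 12 mitotic kinesins and in Kif26b, and are missing from all transport kinesins but Kif1a; the ciliary kinesin Kif27, which did not pass, has 3 of them farther upstream.

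Kif26b had the largest difference of any kinesin and the 21st largest rise of the 22180 genes tested. This atypical member has no motor activity of its own and is known as a target of Wnt5a-Ror signalling, which controls its degradation, and as a factor of cell adhesion in the mesenchyme of the developing kidney. It read 5.21, 5.33, 4.83 and 5.23 on control replicates 1 to 4 and 8.30, 8.06, 8.94 and 7.55 on bleomycin replicates 1 to 4. The lowest bleomycin array lay more than 2 log2 units above the highest control array. The level went from 5.15 ± 0.22 to 8.21 ± 0.58 (mean ± SD, n = 4 each), a difference of 3.06 ± 0.25 or 8.36-fold, with a 95% interval of 2.52 to 3.61 (limma adjusted p = 4.54e-05). The difference stayed between 2.82 and 3.28 with any 1 array left out. It was 2.91 in replicates 1 and 2 alone and 3.21 in replicates 3 and 4 alone, and it passed in both. Its paralogue Kif26a, known from enteric neuron development, read 5.66, 5.92, 5.63 and 5.75 in control and 5.46, 5.64, 5.53 and 5.62 in bleomycin samples. Kif26a differed by -0.18 ± 0.09 (limma adjusted p = 0.234), with a 95% interval of -0.38 to 0.03.

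The bleomycin arrays ranked differently for Kif26b than for most mitotic kinesins. Kif26b was highest on bleomycin replicate 3, where Mki67 was below its values on replicates 1 and 2 and Top2a between them, while 10 of 13 mitotic kinesins were highest on replicate 1. Replicate 4 was the lowest bleomycin array for Kif26b and for 12 of the 13 mitotic kinesins. With 4 arrays this order is a description. The promoter window of Kif26b held a CHR match from -9 to -4 and a reverse CCAAT box from -73 to -69, whereas that of Kif26a held neither. Both stretches are shown since the paralogues differed in their response, with capitals as above.
Kif26b, chr1:178529015-178529149, plus strand: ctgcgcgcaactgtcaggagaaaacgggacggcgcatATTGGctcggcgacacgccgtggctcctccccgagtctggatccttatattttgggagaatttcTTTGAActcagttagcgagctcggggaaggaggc
Kif26a, chr12:112146098-112146232, plus strand: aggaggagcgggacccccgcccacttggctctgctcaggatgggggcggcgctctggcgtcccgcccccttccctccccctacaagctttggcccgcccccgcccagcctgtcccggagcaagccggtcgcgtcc

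Genes of the Wnt5a-Ror pathway, in which Kif26b is known to act, moved in part. Of 20 pathway genes 6 rose and 1 fell, beside 9.12% and 8.24% of all genes, and the median of their differences was 0.13. The receptor Ror1 read 7.89, 7.82, 7.89 and 7.89 in control and 9.22, 8.9998, 9.08 and 8.80 in bleomycin samples, a rise of 1.15 ± 0.10 (limma adjusted p = 6.47e-05). Ror2, the other receptor of the pair, read 7.59, 7.72, 8.10 and 8.02 in control and 8.77, 8.80, 8.93 and 8.81 in bleomycin samples, a rise of 0.97 ± 0.12. The ligand Wnt5a rose by 0.80 ± 0.15, and its highest array of each group was replicate 3, at 7.09 and 8.07. The groups did not overlap in any of these 3 genes, but Wnt5a did not pass in replicates 1 and 2 alone or in 3 and 4 alone (adjusted p of 0.0578 and 0.113). Prickle2, a planar polarity gene, fell by 0.69 ± 0.15.

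**Figure D4:**
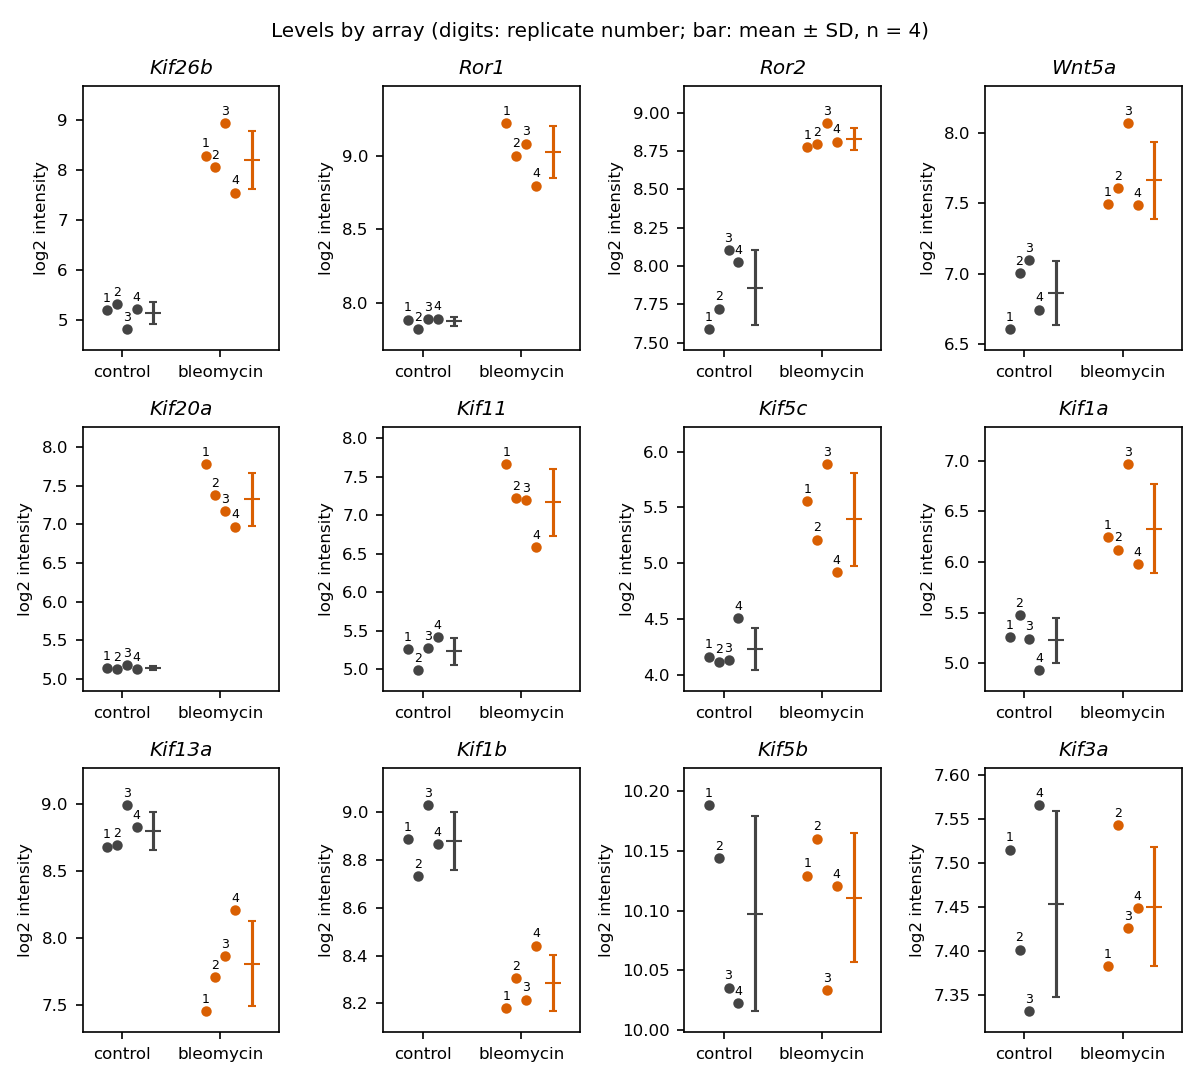
Log2 intensity (vertical axes, each with its own range) of 9 kinesins, of Ror1 and Ror2 and of Wnt5a on the 4 control (grey) and 4 bleomycin arrays (orange); digits give the replicate number, and the bar is the mean ± SD. Kif26b, Kif5c, Kif1a and Wnt5a share their highest bleomycin array, replicate 3, while Kif20a and Kif11 are highest on replicate 1, and the groups of Kif5b and Kif3a overlap.

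Of the 17 transport kinesins 2 were higher and 4 lower, beside 9.12% and 8.24% of all genes, and 11 did not pass. Kif5c, a heavy chain of kinesin-1 that is best known from neurons, read 4.17, 4.12, 4.14 and 4.51 in control and 5.56, 5.21, 5.89 and 4.92 in bleomycin samples. The groups did not overlap, and the rise was 1.16 ± 0.19, or 2.24-fold (limma adjusted p = 0.00225). Kif1a, the carrier of synaptic vesicle precursors in neurons, read 5.26, 5.48, 5.24 and 4.94 in control and 6.25, 6.12, 6.96 and 5.98 in bleomycin samples, a rise of 1.10 ± 0.20 (limma adjusted p = 0.0042). Both were highest on bleomycin replicate 3 and lowest of the bleomycin arrays on replicate 4, as was Kif26b. Kif5c was below the median of unannotated rows on 3 of 4 control arrays. Of 8 Schwann cell and neuron markers 2 rose, beside 9.12% of all genes. S100b rose by 1.18 and Tubb3 by 1.14, while Sox10, Cdh19, Rbfox3, Elavl4, Snap25 and Syt1 did not pass. The mean of the 8 markers lay between 4.19 and 4.37 on control and between 4.48 and 4.69 on bleomycin arrays. The part of these markers in the rise of Kif5c and Kif1a was not tested. Both rises were called in replicates 1 and 2 alone, and not in replicates 3 and 4 alone, where Kif5c differed by 1.08 and Kif1a by 1.38 (adjusted p of 0.143 and 0.0872).

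None of the close relatives of Kif5c and Kif1a passed as higher. Kif5b, the kinesin-1 heavy chain used by most cell types, read 10.19, 10.14, 10.04 and 10.02 in control and 10.13, 10.16, 10.03 and 10.12 in bleomycin samples. The arrays overlapped throughout and the 95% interval of the difference was -0.17 to 0.20. The second, dimmer row of Kif5b differed by 0.24 ± 0.26. Kif5a, a neuronal heavy chain, had an interval of -0.39 to 0.38. Kif1c, which moves vesicles and messenger RNA in non-neuronal cells, had an interval of -0.17 to 0.28, while its relative Kif1b, a carrier of mitochondria and synaptic vesicles, fell.

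The 4 transport motors that fell were all brighter in every control array than in any bleomycin array. They were picked by their call, so this is a description. Of all 17 transport kinesins 5 did not overlap as lower and 3 as higher, beside 11% and 12.5% of all genes. Kif13a, which carries cargo from endosomes to the cell surface, read 8.68, 8.70, 8.99 and 8.83 in control and 7.46, 7.71, 7.87 and 8.21 in bleomycin samples. It fell by 0.99 ± 0.15, being 1.98-fold lower (limma adjusted p = 0.00155). Kif1b read 8.89, 8.73, 9.03 and 8.87 in control and 8.18, 8.31, 8.22 and 8.44 in bleomycin samples and fell by 0.59 ± 0.10 (limma adjusted p = 0.00235). Kif13b, a motor of membrane receptors and polarity proteins, fell by 0.52 ± 0.12, and Kif21a, which restrains microtubule growth at the cell edge, by 0.45 ± 0.10 (limma adjusted p of 0.0155 and 0.0107). Bleomycin replicate 4 was nearest the controls in Kif13a, Kif1b and Kif13b, and the endothelial and alveolar list means were nearest the controls on the same array, at 8.34 and 7.59.

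These falls went with lower endothelial and alveolar epithelial markers, whose part in them was not tested. On control replicates 3 and 4 the endothelial means were 8.75 and 8.64, against at most 8.34 on bleomycin arrays. The alveolar means there were 8.33 and 8.30, against at most 7.59. Leaving out control replicates 1 and 2 therefore does not separate the falls from these markers. Without them, Kif13a fell by 1.10 (limma adjusted p = 0.0115) and Kif1b by 0.66 (limma adjusted p = 0.0132). The calls of Kif13b, at -0.57, and of Kif21a, at -0.44, were lost there, with limma adjusted p-values of 0.0568 and 0.0714. In replicates 3 and 4 alone, with 2 arrays a group, none of the 4 passed, with differences of -0.87, -0.62, -0.42 and -0.47 for Kif13a, Kif1b, Kif13b and Kif21a.

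The remaining transport motors did not pass. Kifc2 and Kif16b, the latter a motor of early endosomes, differed by -0.36 and -0.39, and Kif21b, the relative of Kif21a, by 0.37 (limma adjusted p of 0.053, 0.0586 and 0.0578). All 3 lay near the threshold. Kifc2 and Kif16b passed as lower with quantile normalization or median centring. When replicates 1 and 2 formed one block and replicates 3 and 4 the other, Kifc2, Kif16b and, just under the threshold, Kif21b passed. All 3 also passed without the dimmest 30% or 50% of genes and with trended and robust eBayes. Kif21b also passed without control replicate 1 or bleomycin replicate 4, Kifc2 without control replicate 1, and Kif16b without control replicate 2 or bleomycin replicate 4. For Kif21b the limma adjusted p lay between 0.0267 and 0.0496 in these settings, the filters and eBayes included. Kif3a and Kif3b, which with the adaptor Kifap3 form the kinesin-2 motor of the cilium and of vesicle transport, had intervals of -0.20 to 0.19 and 0.03 to 0.42. Kif3b did not pass (limma adjusted p = 0.108) although its groups did not overlap. Among the alternatives it passed as higher only without the dimmest 50% of genes (limma adjusted p = 0.0448). Kifap3 differed by -0.02 ± 0.08. Kif3c differed by -0.22 ± 0.12, Kifc3 by 0.20 ± 0.10, and Kif17, a dendritic and ciliary motor, had an interval of -0.17 to 0.18.

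Adaptors and the opposite motor moved little. Of 24 light chains and cargo adaptors none rose and 3 fell, beside 8.24% of all genes lower. They were the JNK-interacting scaffold Mapk8ip3, which fell by 0.71 ± 0.19, the kinesin-1 adaptor Fez1, which fell by 0.51 ± 0.09, and the light chain Klc1, whose groups overlapped and which fell by 0.46 ± 0.14. The calls of Mapk8ip3 and Klc1 were lost without 1 array in 3 and 6 of 8 cases. Of 23 genes of cytoplasmic dynein and dynactin, which move cargo the other way, 1 fell, the dynactin subunit Dctn6 by 0.44 ± 0.09, and none rose. At an unadjusted p under 0.05, limma gave 0 adaptors higher and 5 lower, and 1 dynein or dynactin gene higher and 2 lower. The median differences were -0.10 for the adaptors and 0.01 for dynein and dynactin.

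None of the 6 ciliary kinesins passed in the limma fit, and 0 of them had an unadjusted p under 0.05. Kif7, which regulates Gli factors at the tip of the cilium, read 5.83, 5.80, 5.93 and 5.82 in control and 5.75, 5.89, 5.94 and 6.14 in bleomycin samples, with a 95% interval of -0.13 to 0.30, and its second row differed by 0.08 ± 0.09. Kif24, which removes microtubules at the mother centriole and holds back cilium formation, had an interval of -0.05 to 0.37. Kif27, the paralogue of Kif7, differed by -0.18 ± 0.14. Kif27 lay below the median of unannotated rows on all 8 arrays. Kif19a, which limits the length of motile cilia, and Kif6 and Kif9 of motile cilia had differences of 0.19, 0.17 and 0.01. None of 12 markers of multiciliated epithelium passed either in limma (2 had an unadjusted p under 0.05, both lower), with a list mean between 4.50 and 4.68 on control and 4.47 and 4.52 on bleomycin arrays. Of 19 genes of intraflagellar transport, the train that kinesin-2 pulls, 3 rose and 1 fell, beside 9.12% and 8.24% of all genes. Among them were Ift74, which rose by 0.49 ± 0.10, and Dync2h1, the heavy chain of the returning motor, which fell by 0.46 ± 0.10. The other rises, of Wdr35 by 0.38 ± 0.10 and of Ift122 by 0.34 ± 0.10, were each lost without 1 array in 6 of 8 cases and in 13 of the 23 alternatives. Of 7 hedgehog pathway genes 4 rose and 0 fell, beside 9.12% and 8.24% of all genes. The count does not tell whether hedgehog signalling rose or fell. The rises were of Hhip by 0.69 ± 0.12, Smo by 0.49 ± 0.11, Gli3 by 0.46 ± 0.12 and Sufu by 0.31 ± 0.08. The call of Gli3 was lost without 1 array in 6 of 8 cases. Ptch1, Gli1 and Gli2 differed by -0.55, -0.21 and 0.08 and did not pass (limma adjusted p of 0.0767, 0.406 and 0.688). The groups of Ptch1 did not overlap. Of the unclassified members, Kif2a, a microtubule depolymeriser of neurons and spindles, differed by 0.12 ± 0.10 and Kif12 by 0.02 ± 0.11, and neither passed.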

How the data were processed

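Expression was measured in sorted lung cells on 8 arrays, 4 control and 4 bleomycin samples, after amplification of 100 ng of RNA into biotinylated cRNA, per the labels' protocols. The authors deposited 1 value per row and array; how they were normalised is not given in the sources used here, and log2 was inferred from the deposited values. Of 41345 rows 23521 had 1 gene, 1814 several and 16010 none, by the platform annotation, which can be old. The brightest row by the mean of the 8 arrays stood for each of 22180 genes, with no further normalization or filter on dim rows. limma 3.58.1 (R 4.3.3) compared the groups with lmFit and eBayes, with Benjamini-Hochberg adjustment over all genes and a threshold of 0.05. Precision is limited by the number of arrays. The script was tested on simulated data. Promoters came from RefSeq windows of GRCm38.p6. Kinesins were grouped by known role, and the genes named are the members, up to 3 passing genes of each pathway list that changed most in the direction of most calls, at most 2 that went against it, the genes of the sorting gate, Mki67, Top2a, and the partners Kifap3, Prc1, Racgap1, Tpx2, Klc1 and Ror2. Rhoa, Cenpe, Kifc5b, Kif4-ps, Sufu, Ptch1, Gli1, Gli2 and the neuron markers fall outside this rule and were named after their values were seen. Members and lists were chosen with earlier results of these data known. Alternatives were other scalings, filters, row choices, blocks and left-out arrays. Same-numbered control and bleomycin samples had deviations correlated at 0.129, 0.063, 0.114 and 0.065. Differently numbered samples within replicates 1 and 2, or within 3 and 4, correlated at 0.071 to 0.109. Between those sets the correlations were -0.140 to -0.067. The numbers were not taken to pair samples, and the main fit had no block for the sets. The control and bleomycin numbers come from the sample titles.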

Additional observations from a re-analysis of the deposited data

Results flagged for a closer look

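In 2 of the 80 groups of 4 arrays of the kinesins, and in 5 of 150 groups of all genes named by the stated rule, 1 array lay far from the other 3 by Dixon's criterion. Chance gives this in about 5% of groups. Genes named outside that rule were not checked. Kif2a read 7.37 on bleomycin replicate 3 and 7.57 to 7.60 on the other bleomycin arrays. Kif5c read 4.51 on control replicate 4 and 4.12 to 4.17 on the other control arrays. Kifap3, the adaptor of Kif3a and Kif3b, read 8.09 on bleomycin replicate 3, above the other 3 bleomycin arrays. Ror1 read 7.82 on control replicate 2 and 7.89 on each other control array. Foxm1 read 5.70 on control replicate 4 and 5.24 to 5.32 on the others.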

How the results depend on the processing

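For the members and the other genes named by the stated rule, no difference changed sign while called under the 23 alternatives run. Kif26b passed in each of them. Genes named outside that rule were not run through the alternatives. Without the dimmest 50% of genes, which left 22 kinesins, 8 kinesins and 4 mitotic kinesins were higher. With replicates 1 and 2 by themselves the counts over all genes were 838 higher and 833 lower, and 1 kinesin, a transport kinesin, was lower. With replicates 3 and 4 by themselves they were 503 and 220 in limma, 7 kinesins were higher and 0 lower, 6 of them mitotic, and 0 transport kinesins were higher or lower. Without control replicates 1 and 2 together 1205 genes were higher and 992 lower. At an adjusted p under 0.01, 1079 genes were higher and 879 lower, and 2 kinesins, both transport kinesins, were lower. With 1 array left out, genes higher ranged from 1497 to 1987 and lower from 1306 to 1883, kinesins higher from 14 to 16 and lower from 4 to 5, mitotic kinesins higher from 11 to 12, and transport kinesins higher from 2 to 3 and lower from 4 to 5. Kif26b then differed by 2.82 to 3.28. With the replicate number as a block 1937 genes were higher and 1838 lower, 15 kinesins were higher and 5 lower, Kif16b joined the lower ones, and Kif26b differed by 3.06 (adjusted p = 0.0012). When replicates 1 and 2 formed one block and 3 and 4 the other, 2293 genes were higher and 2168 lower. There 15 kinesins were higher, 11 of them mitotic, and 6 transport kinesins were lower. Lower transport kinesins also numbered 6 with quantile normalization, median centring, trended and robust eBayes, or without the dimmest 30% or 50% of genes. Kifc1 lost its call in 14 of the 21 alternatives that kept its row. Low signal limits the size of a change in a gene near the level of unannotated rows.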
